A study of Mus musculus with 15 samples.

Results

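Gastric stem and isthmus cell markers are genes whose transcripts, or whose lineage-tracing alleles, have been used to point to dividing cells of the stomach glands. The 8 genes described here (Lgr5, Lrig1, Tnfrsf19, Aqp5, Sox9, Runx1, Bmi1 and Prom1) were chosen by name, out of 44788 gene symbols in the files, and all 8 were found and passed the limit on low values that left 16902 symbols for testing. Whole stomachs of C57BL/6 mice were sequenced at 15 timepoints, namely daily from E12.5 to E18.5 (embryonic days), at 1, 3 and 5 days after birth (D1, D3 and D5) and at 1, 2, 3, 6 and 8 weeks (W1 to W8), with 1 transcriptome at each. The animals carried no transgene or treatment, the embryos were dated from the vaginal plug, and no other tissue was a control. Following the study's RNA phases, 6 timepoints formed Ph1 (E12.5 to E17.5), 6 formed Ph2 (E18.5 to W2) and 3 formed Ph3 (W3 to W8). Since these phases had themselves been drawn from the RNA data, p-values below only describe how far apart they lay. Timepoints stood in for replicates, and their spread therefore includes change with age. For the proteome of the study, 3 embryos were pooled per sample up to E14.5 and 2 up to E17.5, and the pooling for RNA was not stated separately. Stomachs up to W2 were of either sex and later ones were male, so age and sex cannot be told apart in Ph3.

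The glandular stomach is renewed from dividing cells in the isthmus, between the pit cells that face the lumen and the parietal, neck and chief cells below, while some cells at the gland base can also re-enter division. Lgr5, Lrig1, Tnfrsf19 and Aqp5 encode surface proteins, Prom1 encodes a membrane glycoprotein of cell protrusions, Sox9 and Runx1 encode transcription factors, and Bmi1 encodes a chromatin protein. None of them is restricted to gastric stem cells: Runx1 is also a blood cell gene, Sox9 and Prom1 are made in many epithelia, and Bmi1 is made in most dividing tissues. In RNA of a whole organ, fewer cells of a type and less RNA per cell cannot be told apart.

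Expression was given as FPKM, the number of fragments per kilobase of transcript relative to the depth of the library, and was compared on the scale log2(FPKM + 1). Relative depth ranged from 0.702 of that at E12.5 (E16.5) to 1.17 (W6), and if the deposited bounds are Poisson, 1 fragment was worth a median of 0.0415 to 0.0679 FPKM. The 10 highest genes took 11.2% of all FPKM at E14.5 and 53.2% at W6, and since FPKM is relative to all fragments, this can lower the values of the other genes. Each fold change was therefore also calculated after median-ratio scaling, which divides a transcriptome by its median ratio to the geometric mean of all 15, and which set the median log2 fold change of all tested symbols at 0.00 (Ph2 against Ph1) and -0.02 (Ph3 against Ph2) in place of -0.22 and -0.43. As a check of the tissue, the summed FPKM of 7 epithelial genes was 545 to 2749 in Ph1 and 4225 to 5976 in Ph3, and that of 4 pit cell genes was 230 to 2592 and 112467 to 181883. The epithelial list was not uniform. Cdh1, Krt8, Krt18, Krt19 and Cldn18 had positive log2 fold changes into Ph2 and into Ph3. Cldn7 went the other way, from 110 FPKM at E16.5 to 2.68 at W8, and Epcam was at 0.09 into Ph2 and -0.56 into Ph3. The 5 forestomach squamous genes summed to 1096 FPKM at W3, 509.8 at W6 and 10.4 at W8, against 8793 at their peak at E17.5, with Krt5, a keratin of the basal layer, at 1.26 at W8. The forestomach genes thus set W8 apart within Ph3, and their part in the results was not tested. Without W8, the log2 fold changes into Ph3 of the markers called there were 2.45 (Aqp5, adjusted p = 0.00203), -1.68 (Tnfrsf19, adjusted p = 0.00120) and -0.73 (Lrig1, adjusted p = 0.00239). The 5 hepatocyte genes summed to 31.6 to 153 FPKM in Ph1, 245 to 1119 in Ph2, with the peak at D1, and 1497 to 2401 in Ph3, where Apoa1 made up most of the sum, and the 5 pancreatic acinar genes summed to 2.88 to 121 FPKM, with the peak at D3. Within Ph3, Alb was at 65.4 FPKM at W3, against 0.869 at W6 and 0.672 at W8, and at 461 at D1. Apoa2 and Serpina1a were likewise highest at D1 and higher at W3 than at W6 and W8. Without D1, and likewise without D3, the count of markers lower in Ph2 and the count lower in Ph3 each dropped from 2 to 1, in both cases by the loss of Lrig1. Both counts also dropped to 1 without D5, without W2 and without each of E12.5 to E16.5. Without W3, the first count stayed at 2 and the second dropped to 1. Lrig1 lay near the threshold of 0.01 at both steps, so these counts cannot show whether D1, D3 or W3 affected the markers. The part of the hepatocyte and acinar genes was not tested.

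Across the 3 phases, 6 of the 8 markers passed an adjusted p of 0.01 in the moderated F test of limma, where 70.8% of all tested symbols did. These were Lrig1, Tnfrsf19, Aqp5, Runx1, Bmi1 and Prom1, and not Lgr5 (adjusted p = 0.0633) or Sox9 (adjusted p = 0.195). After median-ratio scaling the count was also 6, against 60.7% of all tested symbols, with Sox9 in (adjusted p = 0.00252) and Lrig1 out (adjusted p = 0.406). From Ph1 to Ph2, Runx1 and Prom1 rose (2 of 8 markers, against 13.2% of all tested symbols), and Bmi1 and Lrig1 fell (2 of 8, against 35.1%). After scaling the risers were again Runx1 and Prom1 (20.0% of all tested symbols), while Bmi1 alone fell (18.7%). From Ph2 to Ph3, Aqp5 rose (1 of 8, against 3.41%), and Tnfrsf19 and Lrig1 fell (2 of 8, against 37.4%). After scaling, Aqp5 and Prom1 were called higher (2 of 8, against 15.3%) and Tnfrsf19 alone lower (10.2%). The median log2 fold change of the 8 markers was 0.42 from Ph1 to Ph2 and -0.22 from Ph2 to Ph3, within ranges of -0.87 to 1.003 and -1.61 to 2.50. After scaling the medians were 0.62 and 0.31, so the second turned from negative to positive, with 2 of the 8 below 0 in place of 5. The markers thus moved in both directions at both transitions, and no count of them is read as differing from the share among all tested symbols.

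**Figure D1:**
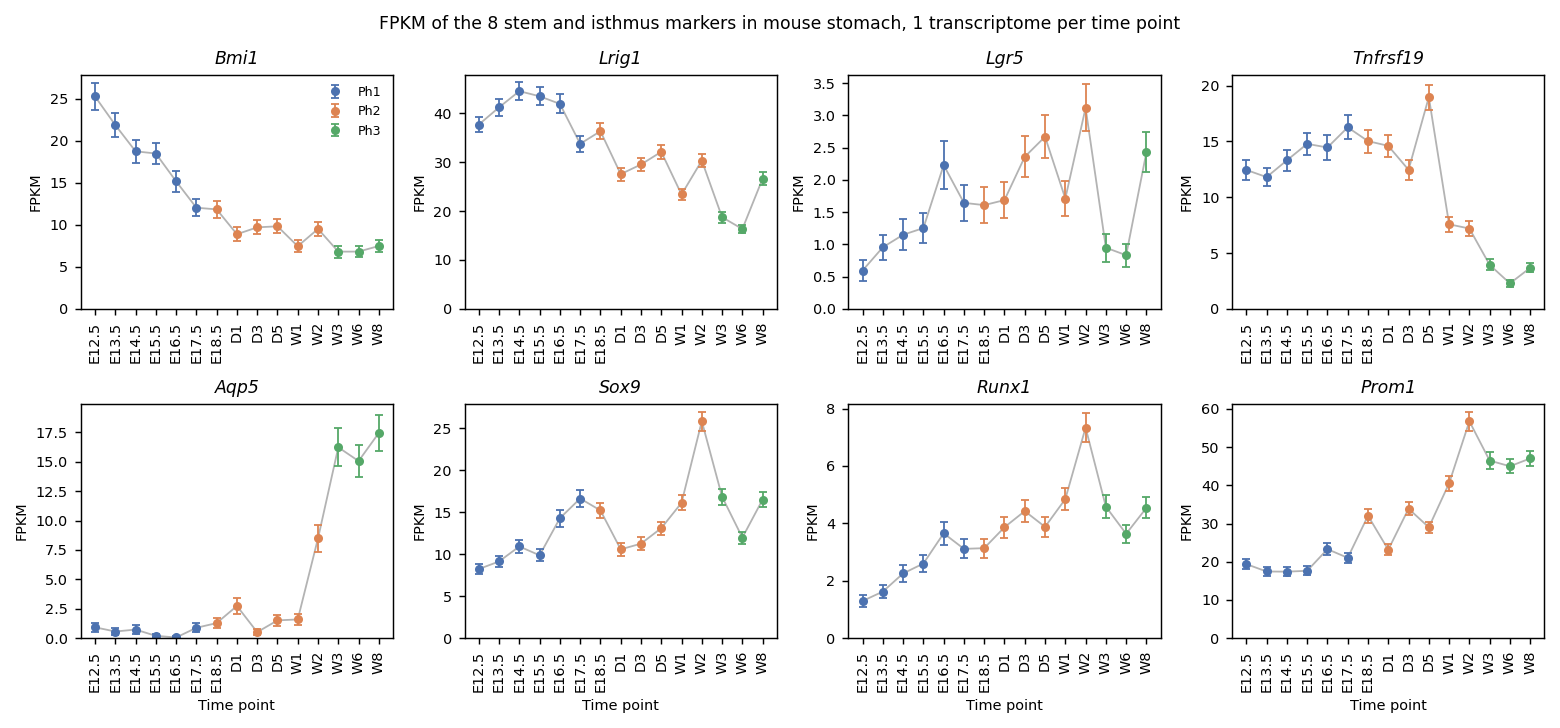
FPKM (vertical axis, linear, from 0) of each of the 8 markers at the 15 timepoints (horizontal axis), coloured by phase, with the authors' lower and upper bounds, which cover counting error only. Bmi1 runs downward from 25.3 at E12.5 to 6.82 at W3, Aqp5 stays at or below 2.74 up to W1 and lies at 15.1 or above from W3 on, and Sox9, Runx1, Prom1 and Lgr5 have their highest value at W2.

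Promoter windows of 300 bases, from 250 bases before the transcript start to 50 from it on, were found in the RefSeq table (GRCm38.p6) for 6 of the 8 markers, 9 windows in all, and not for Lgr5 and Sox9. The windows of the steadiest decline as deposited (Bmi1) and of the largest rise (Aqp5) are shown together because both are rich in G and C. The outer windows of Runx1 and Prom1, which both rose into Ph2, are shown because both contain the core motif of RUNX factors. Whether the motif has a part in either rise was not tested. Capitals mark GGGCGG (the GC box) on either strand in the first pair and TGTGGT (the RUNX core) on either strand in the second. Bmi1 lies at chr2:18676768-18677067 on the plus strand, Aqp5 at chr15:99590778-99591077 on the plus strand, Runx1 at chr16:92826025-92826324 on the minus strand and Prom1 at chr5:44101687-44101986 on the minus strand, each written 5′ to 3′ along its gene.
Bmi1: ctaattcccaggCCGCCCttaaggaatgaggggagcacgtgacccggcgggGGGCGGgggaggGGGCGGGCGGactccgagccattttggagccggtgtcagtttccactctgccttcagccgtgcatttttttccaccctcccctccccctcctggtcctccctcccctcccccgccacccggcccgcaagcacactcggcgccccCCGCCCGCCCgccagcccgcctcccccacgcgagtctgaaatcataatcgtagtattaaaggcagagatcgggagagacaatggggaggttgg
Aqp5: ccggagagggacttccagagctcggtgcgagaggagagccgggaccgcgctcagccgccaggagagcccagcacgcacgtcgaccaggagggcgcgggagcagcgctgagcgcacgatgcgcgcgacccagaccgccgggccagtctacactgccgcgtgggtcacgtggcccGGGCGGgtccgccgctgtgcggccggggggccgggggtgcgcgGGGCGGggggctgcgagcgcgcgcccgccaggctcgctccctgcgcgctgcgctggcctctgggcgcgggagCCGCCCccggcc
Runx1: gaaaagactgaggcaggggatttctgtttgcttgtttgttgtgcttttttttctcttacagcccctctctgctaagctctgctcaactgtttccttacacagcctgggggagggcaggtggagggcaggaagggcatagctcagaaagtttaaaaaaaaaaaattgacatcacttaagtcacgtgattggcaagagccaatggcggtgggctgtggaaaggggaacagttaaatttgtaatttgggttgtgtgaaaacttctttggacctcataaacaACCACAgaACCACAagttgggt
Prom1: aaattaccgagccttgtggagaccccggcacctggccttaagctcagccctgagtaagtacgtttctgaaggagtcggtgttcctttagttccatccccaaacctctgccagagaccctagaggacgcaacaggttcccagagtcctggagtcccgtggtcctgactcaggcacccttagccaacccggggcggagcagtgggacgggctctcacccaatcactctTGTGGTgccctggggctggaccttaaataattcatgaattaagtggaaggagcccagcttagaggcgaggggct

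The Aqp5 window was 79.7% G and C and the Bmi1 window 66.3%, against a median of 52.7% over the 32851 windows used. Windows of 1 chromosome had been left out, and all windows below means the 32851. Of the windows not shown, those of Lrig1 (73.0%) and the inner one of Runx1 (69.0%) lay above that of Bmi1. Those of Tnfrsf19 and the inner one of Prom1 lay below it. The GC box occurred 6 times in the Bmi1 window and 3 times in that of Aqp5, overlapping matches counted, and at least once in 35.7% of all windows. The Runx1 window (45.0% G and C) held 2 RUNX cores, both after the transcript start, and the Prom1 window (57.0%) held 1, where 16.8% of all windows held any. The inner windows of both genes held 0, and the RUNX core was in 2 of the 9 marker windows. The TATA box TATAAA was in none of the 9 marker windows (13.6% of all windows), the TCF/LEF core CTTTGA in 2 (16.0%) and the E-box CACGTG in 4 (7.2%). These motifs were chosen with the marker sequences in view, and a match is a match of letters only. The transcript start of these windows coincided with the start in the files for Bmi1 and Aqp5, and lay 8 bases from it for Runx1 and 479 for Prom1.

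On the deposited scale, Bmi1 had the steadiest decline of the 8 markers. It encodes a ring finger subunit of Polycomb repressive complex 1, which marks histone H2A and holds genes silent, among them the cell cycle inhibitor gene Cdkn2a. Its gene lies at chr2:18677018-18686629 (GRCm38). FPKM was 25.3 at E12.5, 21.9 at E13.5, 18.8 at E14.5, 18.497 at E15.5, 15.2 at E16.5 and 12.05 at E17.5. In Ph2 it was 11.8 at E18.5, 8.89 at D1, 9.71 at D3, 9.83 at D5, 7.46 at W1 and 9.52 at W2, and in Ph3 it was 6.82 at W3, 6.82 at W6 and 7.49 at W8. All 6 values of Ph1 lay above all those of Ph2, and the phases Ph2 and Ph3 overlapped only between W1 and W8. The Ph1 mean of 18.6 ± 4.70 FPKM (SD, n = 6) fell to a Ph2 mean of 9.54 ± 1.43 (SD, n = 6), which is -0.87 on the log2 scale (SE 0.15, adjusted p = 0.000276). The next step, to 7.04 ± 0.387 FPKM (SD, n = 3) in Ph3, was -0.38 (SE 0.18, adjusted p = 0.0852) and was 0.17 after median-ratio scaling. Ordered by level, the 15 timepoints of Bmi1 followed age down to E18.5, and 9 of the 14 neighbouring pairs in that order had overlapping bounds. After scaling, the level went from 19.96 at E12.5 to its lowest, 7.96, at W1, and was 8.97 at W3, 11.97 at W6 and 11.05 at W8.

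Of the 16 Polycomb repressive complex 1 genes listed beside Bmi1 (subunits and Cdkn2a), 7 fell and 1 rose from Ph1 to Ph2, and 9 fell from Ph2 to Ph3. After median-ratio scaling the counts were 3 down and 2 up, then 2 down and 2 up. Among all tested symbols 35.1% and 37.4% fell as deposited and 18.7% and 10.2% after scaling. The shares that rose were 13.2% and 3.41% as deposited and 20.0% and 15.3% after scaling. Nothing particular to the complex is read from its counts. Cbx2, a chromodomain subunit, had the largest decline, from 34.4 FPKM at E12.5 to 1.23 at W8, with log2 fold changes of -1.82 (SE 0.27, adjusted p = 0.000128) and -1.18 (adjusted p = 0.00782), the second of which was not called after scaling (-0.81, adjusted p = 0.0459) or without W8 (adjusted p = 0.0252). Rnf2, the catalytic ring finger partner of Bmi1, went from 35.8 at E12.5 to 5.23 at W8 (log2 fold change -0.93 into Ph2, adjusted p = 0.000439). Phc1, a polyhomeotic subunit, went from 28.1 to 7.25 over the same span (log2 fold change -0.92 into Ph2, adjusted p = 0.000277). Pcgf2, the ring finger protein closest to Bmi1 in its family, fell at both steps, by 0.53 and then by 1.35 on the log2 scale (adjusted p = 0.00624 and 0.000113), with the first step not called after scaling (-0.25, adjusted p = 0.101), and Cbx6 fell by 1.58 into Ph3 (adjusted p = 0.000125). Pcgf5, a ring finger protein of a variant complex, was the one that rose into Ph2, by 0.41 (adjusted p = 0.00427). Cdkn2a did not exceed 1.13 FPKM at any timepoint.

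Lrig1 had the highest FPKM of the 8 markers up to D1, and its decline depended on the scaling. It encodes a transmembrane protein with leucine-rich repeats that promotes turnover of ErbB receptors and restrains epidermal growth factor signalling (chr6:94604529-94700254). FPKM was 37.7 at E12.5, 41.2 at E13.5, 44.5 at E14.5, 43.5 at E15.5, 41.9 at E16.5 and 33.7 at E17.5. It was then 36.3 at E18.5, 27.5 at D1, 29.5 at D3, 32.1 at D5, 23.4 at W1 and 30.3 at W2, followed by 18.7 at W3, 16.3 at W6 and 26.6 at W8. The ranges of Ph1 and Ph2 overlapped between E17.5 and E18.5, and W8 lay above W1. The means were 40.4 ± 4.02 FPKM (SD, n = 6), 29.9 ± 4.34 (SD, n = 6) and 20.6 ± 5.39 (SD, n = 3). Its log2 fold changes were -0.43 (SE 0.13, adjusted p = 0.00832) and -0.53 (SE 0.15, adjusted p = 0.00899). Both lost the call under median-ratio scaling, at -0.15 (adjusted p = 0.233) and 0.06 (adjusted p = 0.750), and leaving out single timepoints moved the adjusted p from 0.00338 to 0.0213 for the first step and from 0.00239 to 0.0735 for the second. After scaling, the level at W8 was 39.3, above every other timepoint of the gene.

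The entry Slc25a26 (5.46 to 9.17 FPKM) overlaps the far end of Lrig1 in the files, and whether fragments were counted by strand was not stated. The other members of the Lrig family fell at both steps. Lrig3 went from 20.5 FPKM at E12.5 to 3.98 at W8 (log2 fold changes -0.74 and -1.31, adjusted p = 0.000580 and 0.000113) and was also called at both steps after scaling (-0.48 and -0.82). Lrig2 went from 6.23 to 2.03 (log2 fold changes -0.49 and -0.80, adjusted p = 0.00294 and 0.000604), with neither step called after scaling. Erbb2, a receptor that Lrig1 acts on, fell by 0.51 into Ph3 (adjusted p = 0.00661), was at 0.07 after scaling and was not called without W8 (adjusted p = 0.0188).

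Lgr5 was the lowest of the 8 markers in Ph3 and had no call. It encodes a receptor for R-spondins, ligands that raise Wnt signalling by removing the ubiquitin ligases Rnf43 and Znrf3 from the cell surface, and in the stomach it is known from the base of antral glands and from chief cells (chr10:115450314-115587780). FPKM was 0.595 at E12.5, 0.956 at E13.5, 1.15 at E14.5, 1.25 at E15.5, 2.23 at E16.5 and 1.64 at E17.5. It was 1.61 at E18.5, 1.69 at D1, 2.36 at D3, 2.67 at D5, 1.71 at W1 and 3.12 at W2, and then 0.949 at W3, 0.833 at W6 and 2.43 at W8. Each value rested on 55.1 to 292 fragments if the bounds are Poisson. All 14 neighbouring pairs in the order of levels had overlapping bounds, and the 3 values of Ph3 did not lie together, since the lower bound at W8 (2.12) was above the upper bounds at W3 (1.16) and W6 (1.01). The log2 fold changes were 0.48 (SE 0.19, adjusted p = 0.0393) into Ph2 and -0.45 (SE 0.24, adjusted p = 0.114) into Ph3. After scaling they were 0.63 (adjusted p = 0.0158) and -0.08 (adjusted p = 0.806). The value into Ph3 was -0.73 (adjusted p = 0.0198) without W8 and -0.28 (adjusted p = 0.406) without W6.

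In the pathway of Lgr5, 11 of 12 listed receptors, ligands and Wnt feedback genes were tested, of which 1 fell into Ph2 and 4 fell into Ph3, with 0 risers at either step among symbols of an adjusted p under 0.01 in limma. After scaling there was 1 riser and 1 faller at each step. The shares of fallers, 1 and 4 of 11, were below and near those of all tested symbols (35.1% and 37.4%). Risers were 13.2% and 3.41% of all tested symbols. On the scaled values, 20.0% and 15.3% of all tested symbols rose, and 18.7% and 10.2% fell. The faller into Ph2 was Rspo2, a ligand, which went from 5.41 FPKM at E15.5 to 0.125 at W8 (log2 fold change -1.23, SE 0.20, adjusted p = 0.000225). The fallers into Ph3 were Rspo3, a second ligand (-0.91, adjusted p = 0.00311), the ubiquitin ligase gene Znrf3 (-0.56, adjusted p = 0.00415) and the feedback inhibitors Axin2 (-1.01, adjusted p = 0.000605) and Nkd1 (-1.50, adjusted p = 0.000802). Of these 4, Axin2 alone was called after scaling (-0.65, adjusted p = 0.00690), and Rspo3 was not called without W8 (-0.77, adjusted p = 0.0222). Lgr4, the paralogue of Lgr5, was above it throughout, at 17.3 to 29.4 FPKM, with log2 fold changes of -0.28 and -0.01 (adjusted p = 0.0543 and 0.949), and was called higher in Ph3 after scaling (0.58, adjusted p = 0.00623).

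Tnfrsf19, which encodes the tumour necrosis factor receptor family member TROY and is a Wnt target in intestinal stem cells, held its level until D5 and then dropped (chr14:60963834-61046855). FPKM was 12.4 at E12.5, 11.8 at E13.5, 13.3 at E14.5, 14.8 at E15.5, 14.45 at E16.5 and 16.3 at E17.5. It was 15.0 at E18.5, 14.6 at D1, 12.45 at D3 and 18.96 at D5, then 7.58 at W1 and 7.20 at W2, and 3.95 at W3, 2.28 at W6 and 3.68 at W8. The drop thus began inside Ph2, between D5 and W1, and every value of Ph3 lay below every earlier one. Ph1 averaged 13.8 ± 1.64 FPKM (SD, n = 6), Ph2 averaged 12.6 ± 4.58 (SD, n = 6) and Ph3 averaged 3.30 ± 0.892 (SD, n = 3). The log2 fold change into Ph3 was -1.61 (SE 0.25, adjusted p = 0.000228), or -1.13 (adjusted p = 0.00132) after scaling, and lay between -1.74 and -1.43 with any single timepoint left out. The change into Ph2 was -0.19 (SE 0.20, adjusted p = 0.427), and 0.07 after scaling. The fibroblast list moved in the same direction over this step, with 5 of its 6 genes lower in Ph3 (4 without W8) and a summed level of 1564 to 3859 FPKM in Ph2 and 262 to 1366 in Ph3, none of its genes being at 0 (4 of 6 lower after scaling). The 5 forestomach squamous genes had a median log2 fold change of -3.62 with 1 called lower (0 after scaling in limma), and their sum was 1212 to 8190 FPKM in Ph2 and 10.4 to 1096 in Ph3. The 6 smooth muscle genes had a median of -1.01 with 1 called lower (0 after scaling), and summed to 4278 to 10483 and 2083 to 7771. Among all tested symbols, 37.4% were called lower in Ph3 (10.2% after scaling). The part of the fibroblast, forestomach and smooth muscle lists in the fall of Tnfrsf19 was not tested.

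Aqp5 had the widest range of the 8 markers. It encodes a water channel of the apical membrane of secretory cells, and in the stomach it is a marker of stem cells of the pyloric glands (chr15:99591028-99594829). FPKM was 0.920 at E12.5, 0.561 at E13.5, 0.726 at E14.5, 0.193 at E15.5, 0.0524 at E16.5 and 0.876 at E17.5. It was 1.28 at E18.5, 2.74 at D1, 0.508 at D3, 1.51 at D5, 1.59 at W1 and 8.49 at W2, and then 16.2 at W3, 15.1 at W6 and 17.46 at W8. The values of Ph3 lay above all others, W2 lay between them and the rest, and the bounds of W2 (7.36 to 9.62) overlapped with no other timepoint. The 3 values of Ph3 had overlapping bounds among themselves. The lowest value, at E16.5, corresponded to 1 fragment if the bounds are Poisson, so that the ratio of 333 between highest and lowest FPKM is not a precise number. Ph1 averaged 0.555 ± 0.360 FPKM (SD, n = 6), Ph2 averaged 2.69 ± 2.93 (SD, n = 6) and Ph3 averaged 16.3 ± 1.20 (SD, n = 3). The log2 fold change was 1.003 (SE 0.33, adjusted p = 0.0169) into Ph2 and 2.50 (SE 0.41, adjusted p = 0.000306) into Ph3, and 3.07 (adjusted p = 0.000149) into Ph3 after scaling. The change into Ph2 was called without D3 (1.21, adjusted p = 0.00542), and was lowest without W2 (0.67, SE 0.21, adjusted p = 0.0149). The change into Ph3 was called with any single timepoint left out (2.30 to 2.83).

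Gastric gland cell lists rose over the same ages. Of 3 chief cell genes, 3 rose into Ph2 and 1 into Ph3, of 4 pit cell genes 3 and 3, of 2 neck cell genes 2 and 1, and of 4 parietal cell genes 3 and 0 (2 into Ph3 after scaling). Among all tested symbols, 13.2% rose into Ph2 and 3.41% into Ph3 (20.0% and 15.3% after scaling). Without W8, 1 chief cell and 2 pit cell genes were called higher in Ph3, and the neck cell gene Muc6, a gland mucin, lost its call (2.20, adjusted p = 0.0277, against 2.74). No gene of these 4 lists was called lower at either step, and their part in the rise of Aqp5 was not tested. Among other aquaporins, Aqp4, the water channel of parietal cells, rose into Ph3 (log2 fold change 1.001, adjusted p = 0.00872), with 11.2 FPKM at W8 against 3.77 at most elsewhere, and was not called without W8 (0.52, adjusted p = 0.0675). Aqp1, which is made in endothelium, fell into Ph3 (log2 fold change -1.16, adjusted p = 0.00258), a call lost after scaling (-0.63, adjusted p = 0.0753) and without W8 (-0.92, adjusted p = 0.0208). Aqp3, of the basolateral membrane of epithelia, went from 0.758 FPKM at E12.5 to 154 at D1 without a call at either step.

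**Figure D2:**
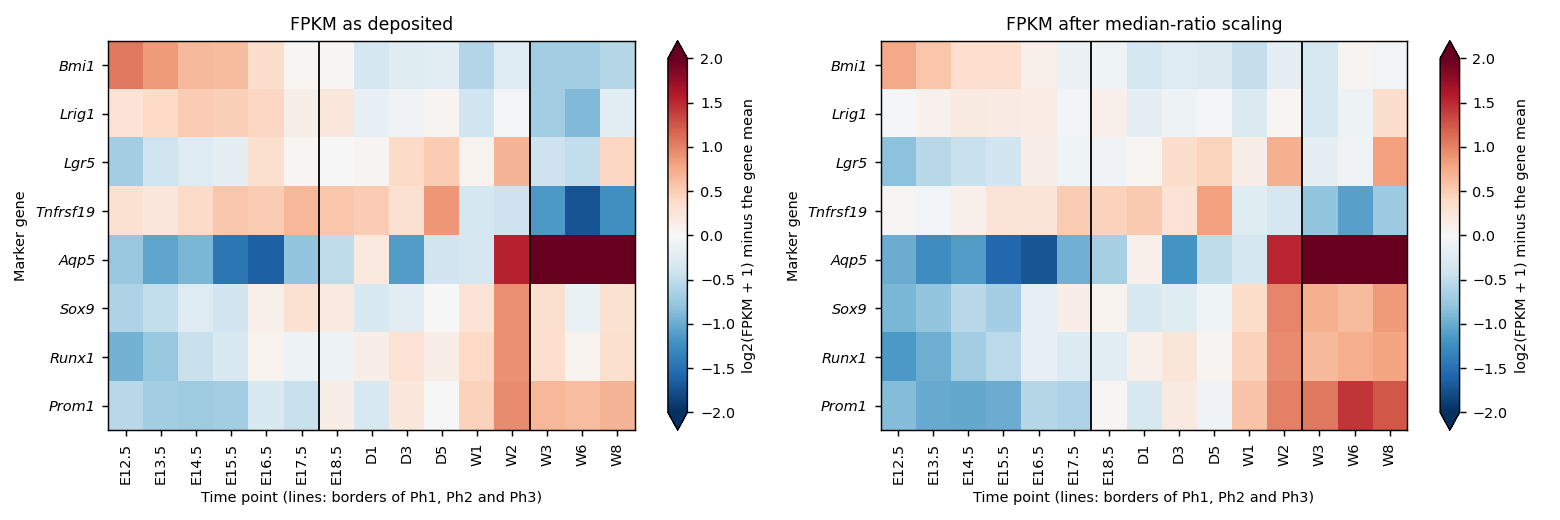
Each row is a marker and each column a timepoint, coloured by log2(FPKM + 1) minus the mean of that gene over the 15 timepoints, for FPKM as deposited (left) and after median-ratio scaling (right), with colours ending at 2 on either side. The Aqp5 row changes most, with 16.2 FPKM at W3 against 0.0524 at E16.5, Lrig1 is nearly level on the right, and Prom1 in Ph3 is higher on the right (61.1 to 78.9 scaled FPKM) than on the left (45.0 to 47.0).

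Prom1, which encodes the glycoprotein prominin 1 (CD133) of microvilli and other membrane protrusions, was the highest of the 8 markers from W1 on (chr5:43993621-44102215). FPKM was 19.4 at E12.5, 17.4 at E13.5, 17.4 at E14.5, 17.6 at E15.5, 23.3 at E16.5 and 21.02 at E17.5. It was 32.03 at E18.5, 23.1 at D1, 33.9 at D3, 29.0 at D5, 40.5 at W1 and 56.8 at W2, and then 46.5 at W3, 45.0 at W6 and 47.0 at W8. Only E16.5 and D1 overlapped between Ph1 and Ph2, and the 3 values of Ph3 had overlapping bounds and lay below W2. The Ph1 mean of 19.4 ± 2.40 FPKM (SD, n = 6) rose to a Ph2 mean of 35.9 ± 11.7 (SD, n = 6), which is 0.81 on the log2 scale (SE 0.16, adjusted p = 0.000846), and Ph3 averaged 46.2 ± 1.06 (SD, n = 3). The step into Ph3 was 0.41 (SE 0.20, adjusted p = 0.0930). It was called after median-ratio scaling (1.01, adjusted p = 0.00336) and without W2 (0.55, adjusted p = 0.00767). Prom2, the paralogue, had another course, with 3.26 FPKM at E12.5, a peak of 28.0 at E17.5 and 7.47 at W8, and no call at either step. The entry Gm16401 overlaps the outer end of Prom1 in the files and did not exceed 1.27 FPKM.

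Runx1, which encodes a transcription factor of blood formation whose enhancer marks isthmus cells in the mouse stomach, had a first maximum at E16.5 and its highest level at W2 (chr16:92601466-92826066). FPKM was 1.29 at E12.5, 1.62 at E13.5, 2.25 at E14.5, 2.60 at E15.5, 3.65 at E16.5 and 3.11 at E17.5. It was 3.14 at E18.5, 3.86 at D1, 4.43 at D3, 3.88 at D5, 4.85 at W1 and 7.34 at W2, and then 4.58 at W3, 3.63 at W6 and 4.54 at W8. The highest value of Ph1, at E16.5, lay above the lowest of Ph2, at E18.5, and W2 stood above all others with bounds of 6.84 to 7.83. The mean rose from 2.42 ± 0.890 FPKM (SD, n = 6) to 4.58 ± 1.47 (SD, n = 6), a log2 fold change of 0.71 (SE 0.19, adjusted p = 0.00428), and was 4.25 ± 0.536 (SD, n = 3) in Ph3, a change of -0.06 (SE 0.23, adjusted p = 0.846) that was 0.45 after scaling. The rise into Ph2 passed the threshold at the median-ratio scale (0.90, adjusted p = 0.00172), and the adjusted p moved to 0.0105 without E12.5, 0.0121 without E13.5 and 0.0104 without W1.

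Leukocyte genes were followed beside Runx1 because blood cells make it. Their 8 genes summed to 80.5 to 119 FPKM in Ph1, 119 to 164 in Ph2 and 48.5 to 139 in Ph3, with 1 of 8 higher in Ph2 (Csf1r, the receptor of macrophage growth factor, log2 fold change 0.59, adjusted p = 0.00821) and the same gene lower in Ph3 (-1.15, adjusted p = 0.000556). After scaling, 4 of 8 were called higher in Ph2 and 0 lower in Ph3 in limma. Among all tested symbols, 13.2% rose into Ph2 and 37.4% fell into Ph3 (20.0% and 10.2% after scaling). None of the 8 leukocyte genes was at 0, and Ptprc, the defining leukocyte gene, was at 0.874 to 1.74 FPKM. Their part in the rise of Runx1 was not tested. Cbfb, the partner subunit that stabilises RUNX proteins on DNA, went the other way, from 55.5 FPKM at E12.5 to 11.53 at W8 (log2 fold change -0.90 into Ph2, SE 0.17, adjusted p = 0.000478). Runx2 and Runx3 stayed below the FPKM limit of 1 at all timepoints and were not tested.

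Sox9, which encodes a transcription factor of progenitor cells in gut, pancreas and cartilage, had no call on the deposited scale (chr11:112782210-112787757). FPKM was 8.23 at E12.5, 9.13 at E13.5, 10.9 at E14.5, 9.86 at E15.5, 14.3 at E16.5 and 16.6 at E17.5. It was 15.2 at E18.5, 10.6 at D1, 11.3 at D3, 13.1 at D5, 16.1 at W1 and 25.8 at W2, and then 16.8 at W3, 11.97 at W6 and 16.51 at W8. The level thus had a first maximum at E17.5 and a second, higher one at W2, whose bounds (24.7 to 27.0) overlapped with no other timepoint, and the ranges of all 3 phases overlapped. The log2 fold changes were 0.37 (SE 0.21, adjusted p = 0.135) and 0.02 (SE 0.25, adjusted p = 0.947). After scaling they were 0.62 (adjusted p = 0.0262) and 0.60 (adjusted p = 0.0844), and the test across the phases passed. Of its relatives of the SoxE group, Sox10, which marks enteric glia, fell into Ph3 from 7.26 to 12.8 FPKM in Ph2 to 1.17 to 3.14 (log2 fold change -1.96, adjusted p = 0.000146), and Sox8 fell into Ph2 (log2 fold change -1.29, adjusted p = 0.000660).

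**Figure D3:**
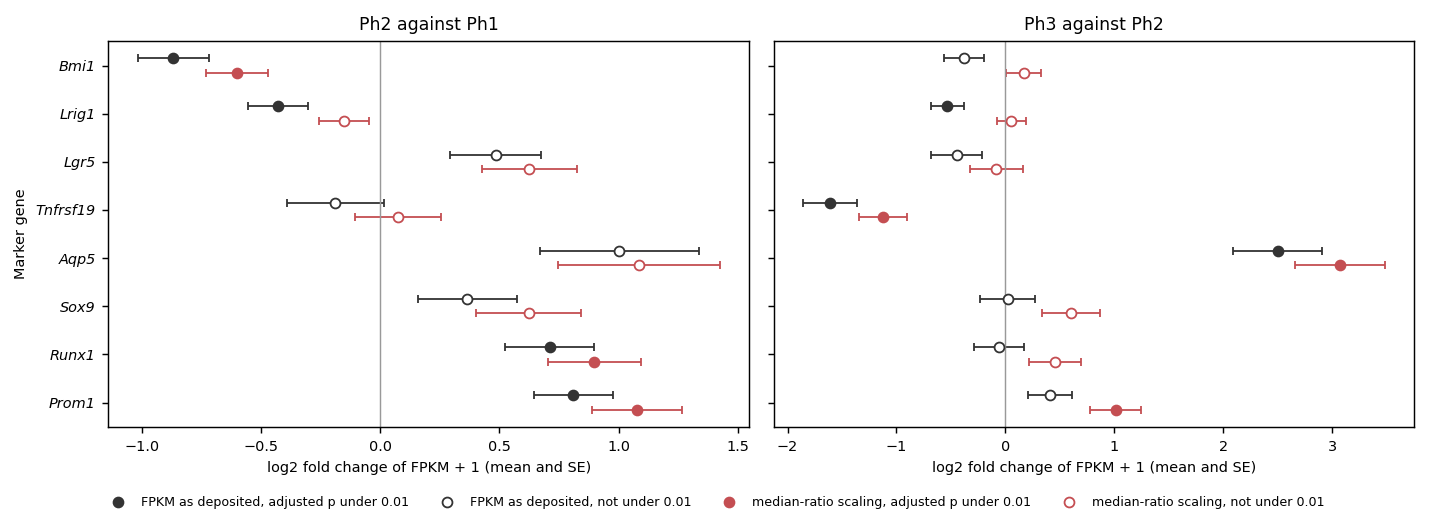
Log2 fold change of FPKM + 1 (horizontal axis, with the SE) of each marker, for Ph2 against Ph1 (left) and Ph3 against Ph2 (right), for FPKM as deposited (dark) and after median-ratio scaling (red). Filled points have an adjusted p under 0.01 in limma. Bmi1, Runx1 and Prom1 are filled under both scalings on the left, Aqp5 and Tnfrsf19 under both on the right, and Lrig1 is filled only as deposited.

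Correlations between markers across the 15 timepoints were calculated as a description, and the points share age, 1 transcriptome each and the same scaling. Among the 28 pairs the highest Pearson's r on log2(FPKM + 1) were those of Lrig1 and Bmi1 (0.86), Runx1 and Prom1 (0.83) and Sox9 and Runx1 (0.82). The lowest were those of Tnfrsf19 and Aqp5 (-0.88) and of Bmi1 and Prom1 (-0.84). After scaling, Lrig1 and Bmi1 dropped to 0.49, while Runx1 and Prom1, and Sox9 and Runx1, each stood at 0.93, and Tnfrsf19 and Aqp5 at -0.81. Lgr5, Sox9, Runx1, Prom1 and Aqp5 were positive to each other under both scalings, at the least 0.03 (Lgr5 and Aqp5 as deposited), and Bmi1 was negative to all 5.

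**Figure D4:**
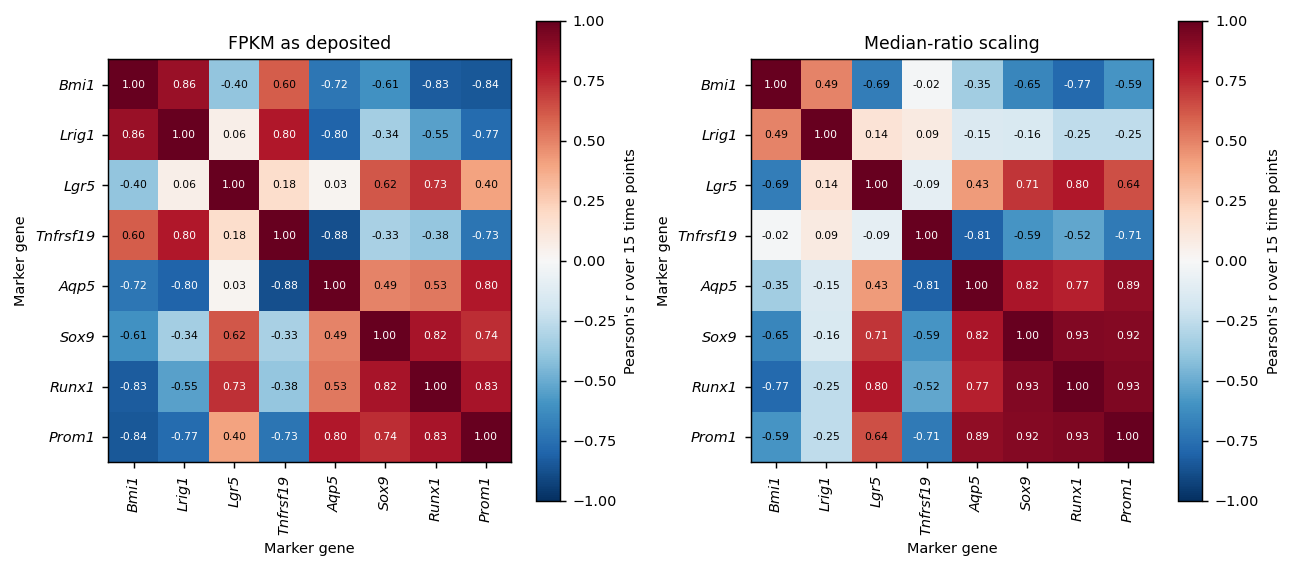
Pearson's r between every pair of markers over the 15 timepoints on log2(FPKM + 1), as deposited (left) and after median-ratio scaling (right), with the value printed in each cell. Sox9, Runx1 and Prom1 are positive to each other on both sides (0.74 to 0.83 on the left, 0.92 to 0.93 on the right), and Lrig1 and Bmi1 go from 0.86 to 0.49.

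For each marker, the tested symbols with the highest r across the 15 timepoints were looked up. Bmi1 was followed most closely by Phf6 (0.99), Phc1 (0.99) and Zik1 (0.99) and Lrig1 by Dopey1 (0.98), Pcf11 (0.98) and Smg1 (0.98), and Tnfrsf19 was followed by Prob1 (0.97) and Sox17 (0.97), among others. Prom1 was followed by Shroom3 (0.98), Card6 (0.98) and Tc2n (0.98), Runx1 by Creb3l4 (0.98), Asns (0.97) and Gpr56 (0.96), and Aqp5 by Slc25a3 (0.97), Bckdha (0.97) and Gpt (0.96). Lgr5 (Ltk 0.94, Akap1 0.94 and 2010315B03Rik 0.92) and Sox9 (Erlin1 0.90, Lrrk1 0.88 and Ly6g6d 0.87) had the least close neighbours. With 16902 symbols to choose from and 15 points that follow age, high values are to be found for many genes. After scaling, the r of these symbols lay between 0.81 (Smg1 with Lrig1) and 0.99 (Shroom3 with Prom1).

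Other reported stem and progenitor markers of the stomach also moved in both directions, though some of them are counted in other lists too. These are Mki67 and Stmn1 (cell division), Axin2 and Lgr4 (pathway of Lgr5) and Bhlha15 (chief cells). Of the 14 listed, 3 rose and 5 fell into Ph2, and 7 fell into Ph3 (after scaling 3 and 4, then 4 fallers and 2 risers). The 5 fallers into Ph2 were near the share of all tested symbols (35.1%), and for Ph3 that share was 37.4% (18.7% and 10.2% after scaling). For risers the shares of all tested symbols were 13.2% into Ph2 and 3.41% into Ph3 (20.0% and 15.3% after scaling). Bhlha15, which encodes the transcription factor Mist1 of chief cells and some isthmus cells, rose from 0.176 FPKM at E12.5 to 13.6 at W8 (log2 fold change 2.30 into Ph2, SE 0.37, adjusted p = 0.000188). Sox2, a transcription factor of foregut progenitors, went from 52.5 FPKM at E17.5 to 5.34 at W8 (log2 fold changes -0.83 and -1.73, adjusted p = 0.00351 and 0.000191), with the first step not called after scaling (-0.55, adjusted p = 0.0240). Without W8 its second step was -1.56 (adjusted p = 0.00161 in limma). The summed forestomach squamous genes were also highest at E17.5 (8793 FPKM) and lowest at W8 (10.4), and their part in the fall of Sox2 was not tested. Stmn1, a microtubule regulator of dividing cells, went from 889 FPKM at E12.5 to 71.3 at W8 (log2 fold change -1.65 into Ph2, adjusted p = 8.80e-05). Smoc2, a secreted matrix protein found with Lgr5 in the intestine, went from 51.0 to 8.94 over the same span (log2 fold change -1.61 into Ph3, adjusted p = 0.000212).

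Cell division genes were followed because these markers are used to point to dividing cells. All 14 listed were lower in Ph2 than in Ph1, with a median log2 fold change of -1.53, and were so under both scalings. In Ph3, 11 of 14 were lower than in Ph2 as deposited and 0 after scaling in limma, with a median of -1.01 or -0.47, and 5 of 14 were called lower without W8. Among all tested symbols, 35.1% fell into Ph2 and 37.4% into Ph3 (18.7% and 10.2% after scaling). Ccnb1, the cyclin of mitotic entry, changed most into Ph2 (-1.83, adjusted p = 8.04e-05), followed by Top2a, the topoisomerase of dividing cells (-1.74, adjusted p = 0.000109). Of the 8 markers as deposited, Bmi1 and Lrig1 shared this direction into Ph2, Tnfrsf19 had a smaller change that was not called, and the other 5 had positive fold changes. After scaling, Bmi1 alone was called lower (-0.60), Lrig1 was at -0.15 without a call and Tnfrsf19 was at 0.07.

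**Figure D5:**
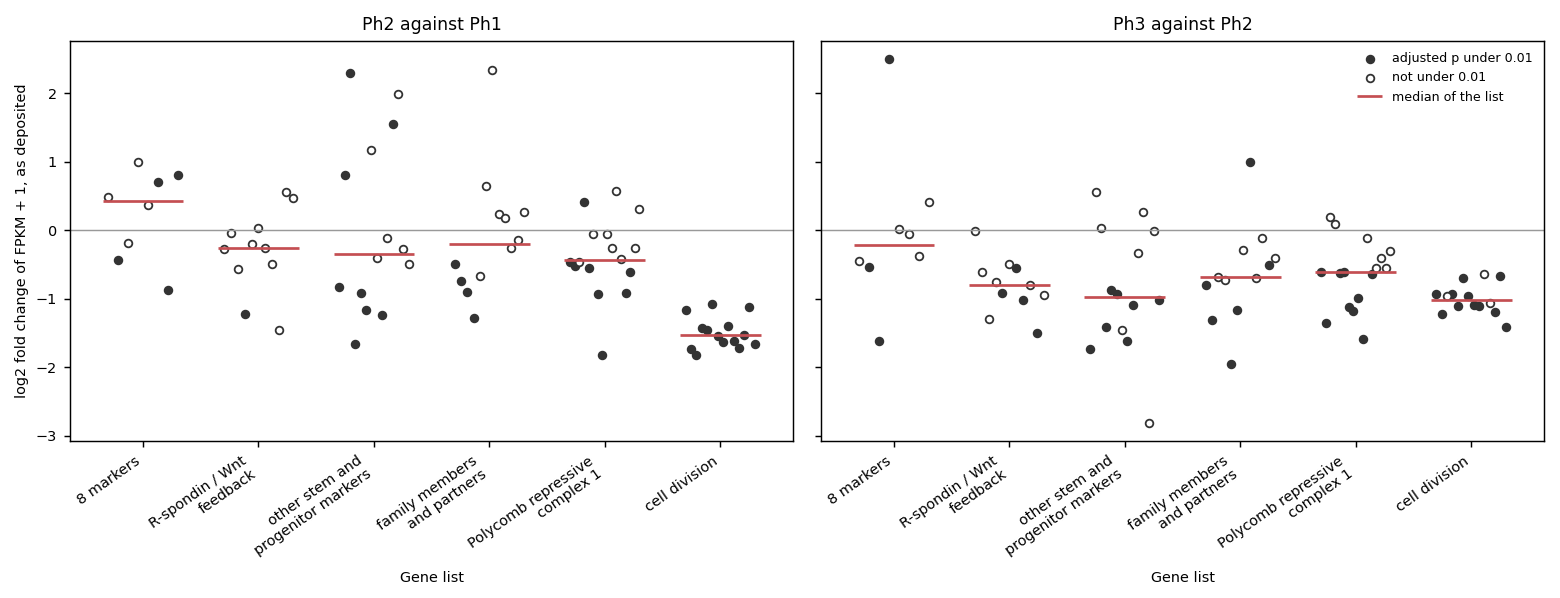
Log2 fold changes of FPKM + 1 as deposited (vertical axis) for the 8 markers and the genes of 5 lists (horizontal axis), for Ph2 against Ph1 (left) and Ph3 against Ph2 (right). Each point is a gene, filled when the adjusted p is under 0.01 in limma, and the red line is the median, which is 0.42 and -0.22 for the markers and -1.53 and -1.01 for cell division. After median-ratio scaling, which is not plotted, the marker medians are 0.62 and 0.31.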

How the data were processed

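Total RNA of mouse stomach was extracted with Trizol and sequenced on an Illumina HiSeq, 1 library per timepoint. The authors deposited 1 table per timepoint with FPKM per gene entry and a lower and an upper bound. According to the paper's methods, reads were checked with FastQC, mapped with HISAT2 to GRCm38 and quantified with StringTie and a GENCODE annotation, whereas the submitters' processing notes name Bowtie 0.12.2 and GRCm38.p2 and the tables have the layout of Cufflinks, so the sources differ. The methods also name liver as the source of RNA, whereas the labels, and the paper elsewhere, name stomach. Starts were counted from 0 in the files (of 30578 symbols compared with the RefSeq table, 20457 had the same start after adding 1 and 346 as written) and are given counted from 1.

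FPKM of entries sharing a symbol were summed. Symbols that reached an FPKM of 1 at any timepoint were tested on log2(FPKM + 1) with limma 3.58.1 in R 4.3.3, in 1 model with 3 phase means, with Benjamini-Hochberg adjustment over all 16902 symbols and a threshold of 0.01. Fold changes on this scale understate the change of low genes, and both contrasts share the Ph2 timepoints. The tables give no counts, so no count test was run. Read depth was estimated from single-fragment entries, which under Poisson bounds have an upper bound of 3 times their FPKM, and the bounds cover counting error only. The fit was tested on simulated data. Other calculations used SciPy 1.17.1, pandas 2.3.3 and NumPy 2.4.6 in Python 3.11.15.

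The members and companion lists were chosen with earlier results of these data known. Named genes were all 8 members, the 3 symbols of highest r to each (1 of those for Tnfrsf19 is not reported here), and of each list up to 4 symbols past the threshold with the largest fold change, plus family members and binding partners of a member. Alternatives were pseudocounts of 0.1 and 0.5, other filters, median-ratio, quantile and fixed-sum scaling, first entries only, other phase borders, a variance trend, untransformed FPKM and leaving out each timepoint. Counts of the companion lists after median-ratio scaling, and their fits without W8, were added after seeing the data. Promoter sequences are from RefSeq (GRCm38.p6). Protein data were not analysed here.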

Additional observations from a re-analysis of the deposited data

Results flagged for a closer look

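In groups of 6 timepoints, the gap between an extreme FPKM and its nearest neighbour was set against the range of the group, with 0.625 as the critical ratio. FPKM was not log-transformed for this, and log2(FPKM + 1) values were not put through the check. Of 16 such groups (8 markers in Ph1 and in Ph2), 2 passed, and both extremes were at W2, the last timepoint of Ph2. Chance gives about 1 in 20 for independent values from a normal distribution, which timepoints that follow age need not be. Aqp5 was at 8.49 FPKM at W2 and at no more than 2.74 at the other timepoints of Ph2 (ratio 0.721). Sox9 was at 25.8 FPKM at W2 and at no more than 16.1 at the others (ratio 0.637). Runx1, Prom1 and Lgr5 also had their highest FPKM of all timepoints at W2 as deposited, with ratios under the critical value. After median-ratio scaling, Runx1 was still highest at W2 (7.60). Prom1 was then highest at W6 (78.9, against 58.8 at W2) and Lgr5 at W8 (3.58, against 3.23 at W2). Timepoints of a phase differ in age, so a change with age and a library that stands apart cannot be told apart at 1 transcriptome per timepoint.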

How the results depend on the processing

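The threshold of 0.01 left Lrig1 near its edge, and most changes in the counts of markers came from it. Of 2 markers higher in Ph2 than in Ph1, 1 was called with untransformed FPKM. Of 2 lower in Ph2, 1 was called with fixed-sum, median-ratio or quantile scaling, with no filter and with a pseudocount of 0.1. The 1 marker higher in Ph3 became 2 with median-ratio scaling. Of 2 lower in Ph3, 1 was called with birth and weaning as borders, with those 3 scalings, with no filter and with untransformed FPKM. With 1 timepoint left out, each of these 4 counts lay between 1 and 2, except that 3 were higher in Ph2 without D3. The count across the phases was 5 or 6 in every alternative run.

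Signs of log2 fold changes that were not called turned in these cases. With median-ratio scaling, Tnfrsf19 into Ph2 was at 0.073, and into Ph3 Runx1 was at 0.45 and Bmi1 at 0.17. With quantile scaling, Lgr5 into Ph3 was at 0.12, Runx1 at 0.57 and Bmi1 at 0.15. With fixed-sum scaling Runx1 into Ph3 was at 0.0030, and with E17.5 in Ph2 it was at 0.0016 and Sox9 at -0.00063. With 1 timepoint left out, Sox9 into Ph3 lay between -0.064 and 0.18 and Runx1 between -0.14 and 0.067. Of called changes, Lrig1 into Ph3 turned, to 0.056 with median-ratio scaling. The cause was not tested. No paired analysis was possible because no timepoint has a replicate. At this depth, a value of Aqp5 before birth can rest on 1 fragment.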
